A study of Mus musculus with 8 samples.

Results

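The interferon response was followed through 45 genes of the signalling chain and its induced antiviral programme, chosen by name, all of which had a row among the 23993 gene rows of the deposited table. The transcripts of 8 thoracic aorta samples were sequenced, with 1 library for each sample. All mice were C57BL/6 males that carried Myh11-CreERT2, a tamoxifen-activated Cre made in smooth muscle cells, and the mT/mG reporter, received tamoxifen at 1.5 weeks and were studied at 24 weeks. In 4 controls Tsc1 was wild type (Tsc1+/+), and in 4 knockouts it was floxed, so that Cre removes it (Tsc1-/-). Tsc1 encodes hamartin, a brake on the growth kinase mTORC1. Recombination is limited to cells that make Myh11, and although the labels name smooth muscle cells, their protocol describes crushed whole aorta with no sorting, so all cells of the vessel wall contributed RNA. In such tissue, fewer cells of a type and less RNA per cell cannot be told apart.

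Type I interferons act through a receptor of the chains IFNAR1 and IFNAR2, whose kinases JAK1 and TYK2 activate STAT2. STAT2 acts with IRF9 in a complex called ISGF3, which binds interferon-stimulated response elements (ISRE) in the promoters of antiviral genes. Interferon gamma acts through IFNGR1 and IFNGR2, with JAK1 and JAK2, and its targets often carry gamma-activated sites (GAS). Sensors of viral or misplaced nucleic acid, such as RIG-I, lead through IRF3 and IRF7 to the making of interferon. Healthy tissue keeps a low tonic level of many of these transcripts.

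Values are FPKM (fragments scaled to transcript length and to the size of the library), given for libraries 1 to 4 of each group or as mean ± SD with n = 4 per group. Differences (log2 changes) are knockout minus control on the log2(FPKM + 1) scale, which understates changes of low genes, with the standard error (SE) from limma. The test covered the 12107 genes that averaged 1 FPKM or more over the 8 libraries, and a call required a p under 0.05 after Benjamini-Hochberg adjustment over all of them. Of the 45 genes 36 reached that mean, and 9 did not and were not tested.

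Tsc1, the targeted gene, had 4.03, 4.82, 4.95 and 6.32 FPKM in controls and 2.99, 3.58, 3.37 and 3.71 in knockouts, and fell without overlap (log2 change -0.44, SE 0.12, limma adjusted p = 0.0190). That call was lost among the odd-numbered (-0.39) and even-numbered (-0.49) libraries alone, each 2 against 2. Libraries fell apart by number: deviations from the group mean correlated above 0 between a control and a knockout whose numbers were both odd or both even (0.016 to 0.173) and below 0 otherwise. What the numbers stand for is not stated, and lost calls within odd or within even numbers are given beside the genes. Relative depth, read from low FPKM values, ran from 0.763 to 2.45 with control 1 at 1, a rough figure. Controls 1 to 3 had larger FPKM totals (593264 to 937271) than the other 5 libraries (453564 to 483615), and without small RNA rows the totals were 481940 to 490054 in controls and 451961 to 466783 in knockouts, still without overlap. The part of these totals in the differences was not tested, although median-of-ratios scaling called the same 14 of the 45 genes.

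Smooth muscle markers were high in every library (7 genes summing to 17331 to 17753 FPKM in controls and 11349 to 15199 in knockouts, 4 of 7 called lower). The 12 macrophage markers summed to 259.9 to 372 FPKM in controls and 219.6 to 303 in knockouts, with 0 of 12 called by limma and 0 at an unadjusted p under 0.05. The 10 T, B and NK cell markers summed to 1.27 to 6.68 and 0.861 to 6.13 FPKM. The 6 plasmacytoid dendritic cell markers summed to 2.51 to 10.3 and 2.06 to 8.71, and 4 neutrophil markers to 3.18 to 14.4 and 0.400 to 7.87. Among the plasmacytoid dendritic cell markers, Cox6a2 alone made 8.71 of the 10.3 FPKM in control 4. It made 6.72 of 8.38 in knockout 1 and 7.37 of 8.71 in knockout 4. Striated muscle marker sums were also the highest of each group in these libraries, at 129, 35.0 and 28.1 FPKM. The sums of the 8 endothelial markers did not overlap, at 216 to 288 FPKM in controls and 114 to 177 in knockouts. Of the 8 genes, 6 were called lower, while Kdr and Emcn overlapped between groups and were not called. The sums of the 4 Schwann cell markers did not overlap either, at 10.4 to 12.3 and 6.29 to 6.90 FPKM. Of these genes, 3 of 3 tested were called lower, although Prx overlapped between groups, as did Sox10, which was not tested. The 7 adventitial fibroblast markers summed to 982 to 1319 and 713 to 1051 FPKM (3 of 7 called lower), 6 fat cell markers to 32.8 to 147 and 15.6 to 86.2 (1 of 5 tested), and 7 striated muscle markers to 12.8 to 129 and 6.03 to 35.0 (2 of 6 tested). The striated muscle markers did not move one way. Of the 6 tested, 5 had a log2 difference below 0. Myh6 had a difference above 0 (2.12, not called), with 25.6 and 17.0 FPKM in knockouts 1 and 4. The sum of 129 in control 4 came mostly from Tnnt3 (52.7), Tnni2 (33.2) and Ckm (26.8). The part of the listed cell types in the interferon gene differences was not tested.

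A small set of interferon-induced genes rose in the knockout aorta while most of the programme did not pass the test. Of the 36 tested genes, 10 rose, 4 fell and 22 did not pass (limma, Benjamini-Hochberg adjusted). Over all tested genes 17.1% were called higher and 15.0% lower, 32.2% in all, and the share called among the interferon genes, 38.9%, is near that background. The values of the 2 groups did not overlap for 13 of the 36 genes, a share to be read beside 33.9% of all tested genes. The median log2 difference was 0.05 for the 36 genes and 0.01 for all tested genes. What stood out was the size of a few changes. Ifit2 and Ifit3 rose about as much as each other, to 3.04 and 2.98 times the control mean, followed by Usp18 (2.49 times) and Samd9l (1.76 times). Xaf1 fell to 0.499 times the control mean, a call lost in 8 of 18 alternative analyses. Ifit2, Ifit3 and Xaf1 were the 3 genes with a log2 difference of at least 1 in size, a size that 3.67% of all tested genes reached. The other called genes differed by 0.23 to 0.35 in size on the log2 scale.

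**Figure D1:**
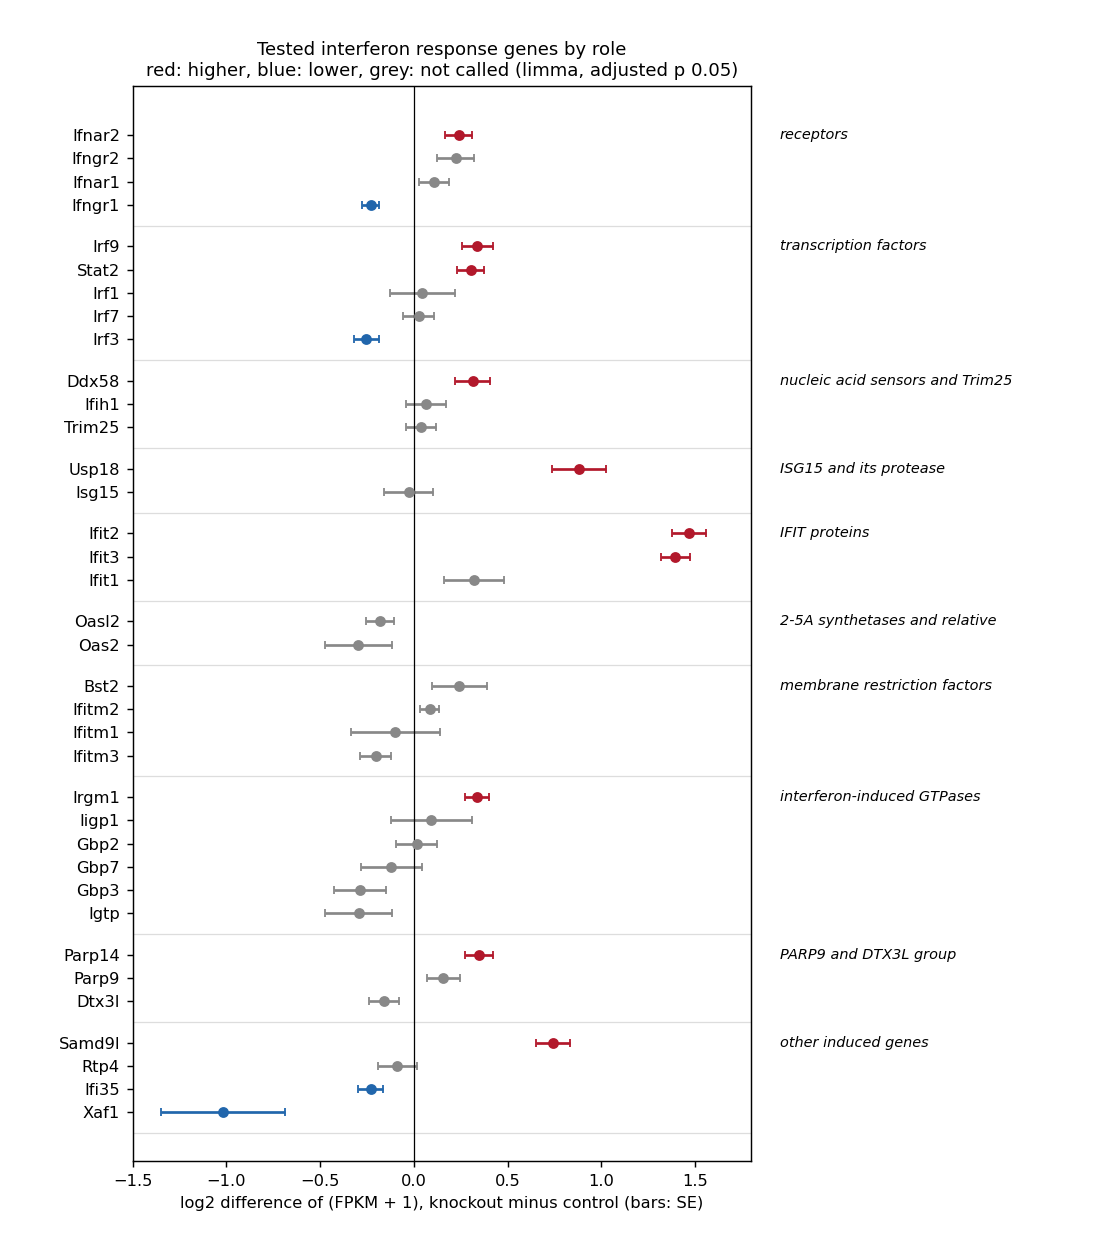
Log2 difference of FPKM + 1, knockout minus control, with its SE, for the 36 tested interferon response genes grouped by role. Red marks the 10 genes called higher, blue the 4 called lower and grey the 22 that did not pass; Ifit2 (1.47) and Ifit3 (1.39) lie far to the right of all others and Xaf1 (-1.02) far to the left.

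The promoters of 5 of these genes, all of which hold it, show the sequence that ISGF3 reads. It occurred in some genes that rose and in some that did not pass. The 250 bases before a start site listed by RefSeq were taken from GRCm38.p6, the assembly of which mm10 is the UCSC name, without bases annotated as UTR in GENCODE M21 (which leaves 127 for Ifit1), and are written 5′ to 3′ on the strand of the gene. Capitals mark every match to the ISRE core (GAAA, any 2 bases, GAAA) on either strand, and overlapping matches run together. Ifit3 (chr19:34583279-34583528, plus strand), Stat2 (chr10:128270248-128270497, plus strand) and Irgm1 (chr11:48871421-48871670, minus strand) rose. Ifit1 (chr19:34640744-34640870, plus strand) and Isg15 (chr4:156200819-156201068, minus strand) did not pass. The Ifit3 start used lies inside the wider RefSeq gene span given further on, and 2 bases before the GENCODE start. For Stat2 the nearest GENCODE start is 61 bases downstream of the RefSeq one, and the bases just after the RefSeq start were not found in a GENCODE transcript, so its window is less certain.
Ifit3: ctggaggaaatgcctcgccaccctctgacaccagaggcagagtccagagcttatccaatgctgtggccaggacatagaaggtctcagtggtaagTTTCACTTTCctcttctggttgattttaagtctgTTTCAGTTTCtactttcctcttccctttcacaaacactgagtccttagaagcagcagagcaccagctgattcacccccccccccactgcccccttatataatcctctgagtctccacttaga
Stat2: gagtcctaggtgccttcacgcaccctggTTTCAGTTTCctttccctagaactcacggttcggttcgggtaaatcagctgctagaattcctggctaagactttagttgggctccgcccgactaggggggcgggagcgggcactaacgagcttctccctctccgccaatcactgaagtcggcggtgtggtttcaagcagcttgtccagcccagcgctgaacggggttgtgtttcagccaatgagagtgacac
Irgm1: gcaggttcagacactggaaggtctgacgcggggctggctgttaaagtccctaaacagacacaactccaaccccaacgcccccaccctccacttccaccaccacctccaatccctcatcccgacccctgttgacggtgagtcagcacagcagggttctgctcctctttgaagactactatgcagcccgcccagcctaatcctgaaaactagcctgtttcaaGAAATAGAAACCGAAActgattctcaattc
Ifit1: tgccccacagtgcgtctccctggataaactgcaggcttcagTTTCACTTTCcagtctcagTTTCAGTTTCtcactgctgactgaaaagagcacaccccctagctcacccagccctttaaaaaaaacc
Isg15: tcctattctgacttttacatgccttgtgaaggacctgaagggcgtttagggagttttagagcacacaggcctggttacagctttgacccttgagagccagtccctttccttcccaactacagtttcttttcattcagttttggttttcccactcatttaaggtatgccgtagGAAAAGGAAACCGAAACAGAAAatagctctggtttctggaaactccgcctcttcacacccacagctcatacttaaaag

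Ifit3 and Ifit1 each held 2 separate matches in these letters. Of the 35 genes with a promoter in the table, 15 held the ISRE core, against 3.46% of all 27025 genes searched over the same length. The genes were chosen by name as interferon response genes, so this larger share says nothing about the knockout. The core was found in 3 of 8 genes that rose, 0 of 4 that fell, 8 of 18 that did not pass and 4 of 5 that were not tested. Ifit2, with the largest rise, had no match in either of its 2 windows. Irf9, Ddx58, Samd9l and Ifnar2 rose and had no match either. The GAS letters (TTC, any 3 bases, GAA, which read the same on both strands) were found in 7 of the 35 genes, against 8.13% of all genes. Among genes with GAS letters, Ifit2 and Ifnar2 rose, and 4 others did not pass. A match here is a run of letters and was not measured as a binding site.

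The receptor chains were among the more abundant transcripts of the group and did not move one way. Ifnar2, a chain of the type I receptor, was measured at 37.3, 32.5, 31.2 and 31.0 FPKM in the controls, in the order 1 to 4, and at 40.7, 40.3, 36.0 and 39.1 in the knockouts. It rose from 33.0 ± 2.94 to 39.0 ± 2.13 FPKM (log2 change 0.24, SE 0.07, adjusted p = 0.0358), and 3 of 4 knockouts lay above all controls. Ifngr1, the ligand-binding chain of the interferon gamma receptor, had 39.4, 40.1, 40.8 and 39.1 FPKM in controls and 34.0, 34.4, 33.2 and 33.8 in knockouts. The groups did not overlap and the libraries of each group were close together. Ifngr1 fell from 39.9 ± 0.736 to 33.8 ± 0.466 FPKM (-0.23, SE 0.04, adjusted p = 0.00515).

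The partner chains did not pass the test. Ifngr2, the signalling chain of the gamma receptor, had 39.6, 44.3, 39.8 and 49.4 FPKM in controls and 50.3, 46.4, 58.7 and 47.2 in knockouts (log2 change 0.22, SE 0.10, adjusted p = 0.113). Ifngr2 was called higher among the odd-numbered libraries alone (0.44), while the even-numbered ones gave 0.00125. The ratio of Ifngr2 to Ifngr1 within a library, one of 5 ratios formed after the values were seen and given with no test, was 0.977 to 1.26 among controls and 1.35 to 1.77 among knockouts. Ifnar1 had 8.70, 9.53, 8.65 and 9.53 FPKM in controls and 9.57, 9.27, 11.6 and 9.27 in knockouts (0.11, SE 0.08, adjusted p = 0.329). The ratio of Ifnar2 to Ifnar1 overlapped, at 3.25 to 4.28 among controls and 3.12 to 4.35 among knockouts. In mm10, Ifnar2, Ifnar1 and Ifngr2 lie within 191225 bases of chromosome 16 (91372783 to 91564007) together with Il10rb, the shared chain of the receptors for interleukin 10 and interferon lambda. Il10rb rose more than its neighbours on the log2 scale, from 20.1 ± 1.17 to 30.5 ± 1.31 FPKM (0.58, SE 0.06, adjusted p = 2.43e-04). The Ifnar2 call was lost when control 2, 3 or 4 or knockout 1, 2 or 4 was left out (0.21 to 0.30 across the 8 such fits) and among the odd-numbered libraries alone (0.16). The Ifngr1 call was lost among the odd-numbered (-0.25) and the even-numbered libraries alone (-0.21), each 2 against 2.

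Stat2 and Irf9, which encode subunits of ISGF3, both rose. Stat2 had 7.52, 6.16, 6.77 and 7.54 FPKM in controls and 8.70, 8.53, 9.33 and 8.82 in knockouts. Irf9, the DNA-binding subunit, had 10.3, 8.94, 9.96 and 9.51 FPKM in controls and 13.2, 10.6, 13.4 and 13.02 in knockouts. For both genes every knockout lay above every control, although knockout 2 was close to control 1 for Irf9. Stat2 rose from 7.00 ± 0.664 to 8.84 ± 0.342 FPKM (log2 change 0.30, SE 0.07, adjusted p = 0.0125) and Irf9 from 9.68 ± 0.593 to 12.5 ± 1.30 FPKM (0.34, SE 0.08, adjusted p = 0.0135). In 2-against-2 fits the Stat2 call was lost among the odd-numbered (0.30) and the even-numbered libraries (0.31) and the Irf9 call among the even-numbered (0.32).

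The factors that switch on interferon genes did not follow Stat2 and Irf9. Irf3, which nucleic acid sensors activate, had 26.3, 27.7, 24.2 and 26.2 FPKM in controls and 22.8, 21.4, 22.9 and 19.8 in knockouts, without overlap. It fell from 26.1 ± 1.43 to 21.7 ± 1.46 FPKM (log2 change -0.25, SE 0.07, adjusted p = 0.0187). That call was lost without control 2 (-0.23) and among the odd-numbered libraries (-0.14). Irf7, the interferon-induced factor that amplifies interferon alpha production, had 3.84, 3.01, 3.79 and 3.43 FPKM in controls and 3.70, 3.31, 3.78 and 3.56 in knockouts (0.03, SE 0.08, adjusted p = 0.834). Irf1, the factor typical of the interferon gamma response, had 13.2, 9.90, 11.7 and 19.3 FPKM in controls and 11.8, 13.6, 14.1 and 14.9 in knockouts (0.04, SE 0.17, adjusted p = 0.866). Both sets of values overlapped fully, and control 4 was the highest for Irf1.

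Interferons themselves were at or near 0. Of 9 ligand genes (Ifnb1, 3 interferon alpha genes, Ifng, Ifne, Ifnk, Ifnl2 and Ifnl3), 7 were listed at 0 in every library. Ifng was listed at 0.0463 FPKM in control 4 and Ifne at 0.118 in control 1, and both at 0 elsewhere. None was tested.

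Among sensors, Ddx58, which encodes the RNA sensor RIG-I, had 5.51, 6.69, 5.37 and 6.90 FPKM in controls and 7.76, 7.01, 8.71 and 7.86 in knockouts. All knockouts lay above all controls, knockout 2 by little. Ddx58 rose from 6.12 ± 0.786 to 7.83 ± 0.696 FPKM (log2 change 0.31, SE 0.09, adjusted p = 0.0322). The call was lost without control 1 or 3 or knockout 1, 3 or 4 (0.26 to 0.37 across the 8 such fits), without a filter (0.31) and among the even-numbered libraries (0.11). Ifih1 (the RNA sensor MDA5) had 1.57, 1.22, 1.49 and 1.57 FPKM in controls and 1.56, 1.28, 1.49 and 2.02 in knockouts (0.06, adjusted p = 0.683). Trim25, a ubiquitin ligase that acts with RIG-I, had 2.91, 2.60, 3.05 and 2.92 FPKM in controls and 2.81, 2.64, 3.32 and 3.16 in knockouts (0.04, adjusted p = 0.750). For Ifih1 and Trim25 the groups overlapped. Dhx58 (LGP2, a regulator of both sensors) and Zbp1 (a sensor of Z-form nucleic acid) were under the filter, at 1.03 ± 0.0622 and 1.02 ± 0.163 FPKM in controls and 0.913 ± 0.173 and 0.794 ± 0.417 in knockouts.

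The IFIT genes, whose proteins bind viral RNA and block its translation, held the largest rises. Ifit2 had 6.86, 7.16, 5.89 and 5.99 FPKM in controls and 20.7, 20.6, 16.5 and 20.9 in knockouts. Ifit3 had 4.57, 4.80, 4.37 and 5.15 FPKM in controls and 13.1, 13.1, 14.1 and 15.9 in knockouts. For both, even the lowest knockout was at more than any control, by a wide margin beside the spread within groups. Ifit2 rose from 6.48 ± 0.631 to 19.7 ± 2.12 FPKM (log2 change 1.47, SE 0.09, adjusted p = 2.56e-05) and Ifit3 from 4.72 ± 0.334 to 14.1 ± 1.32 FPKM (1.39, SE 0.08, adjusted p = 1.68e-05). Over the 18 alternative analyses the log2 difference ran from 1.41 to 1.59 for Ifit2 and from 1.34 to 1.55 for Ifit3, always called.

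Ifit1, in the same gene cluster, had 3.08, 2.18, 1.74 and 2.26 FPKM in controls and 2.84, 2.22, 3.62 and 3.93 in knockouts. The groups overlapped and Ifit1 did not pass (log2 change 0.32, SE 0.16, adjusted p = 0.164). The ratio of Ifit2 to Ifit1 within a library was 2.23 to 3.39 in controls and 4.57 to 9.26 in knockouts, and that of Ifit3 to Ifit1 was 1.48 to 2.51 and 3.91 to 5.90. The 6 Ifit genes matched to the table lie within 112432 bases of chromosome 19 in mm10. The span runs from the start of Ifit2 (34550550 to 34576534) to the end of Ifit1bl1 (34592888 to 34662981). Ifit3 lies at 34583119 to 34588982 and Ifit1 at 34640889 to 34650009. Between them, Ifit3b, a near copy of Ifit3, had 1.53, 1.06, 1.06 and 1.39 FPKM in controls and 2.26, 2.92, 2.53 and 4.56 in knockouts, and rose by 0.82 (SE 0.17, adjusted p = 0.00630). Fragments shared by Ifit3 and Ifit3b could have been assigned to either, so their separate values are uncertain. Ifit1bl1 and Ifit1bl2 averaged 0.122 and 0.0884 FPKM in controls and 0.228 and 0.184 in knockouts, and were under the filter. Without a filter neither was called (limma adjusted p = 0.0507 and 0.0616).

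**Figure D2:**
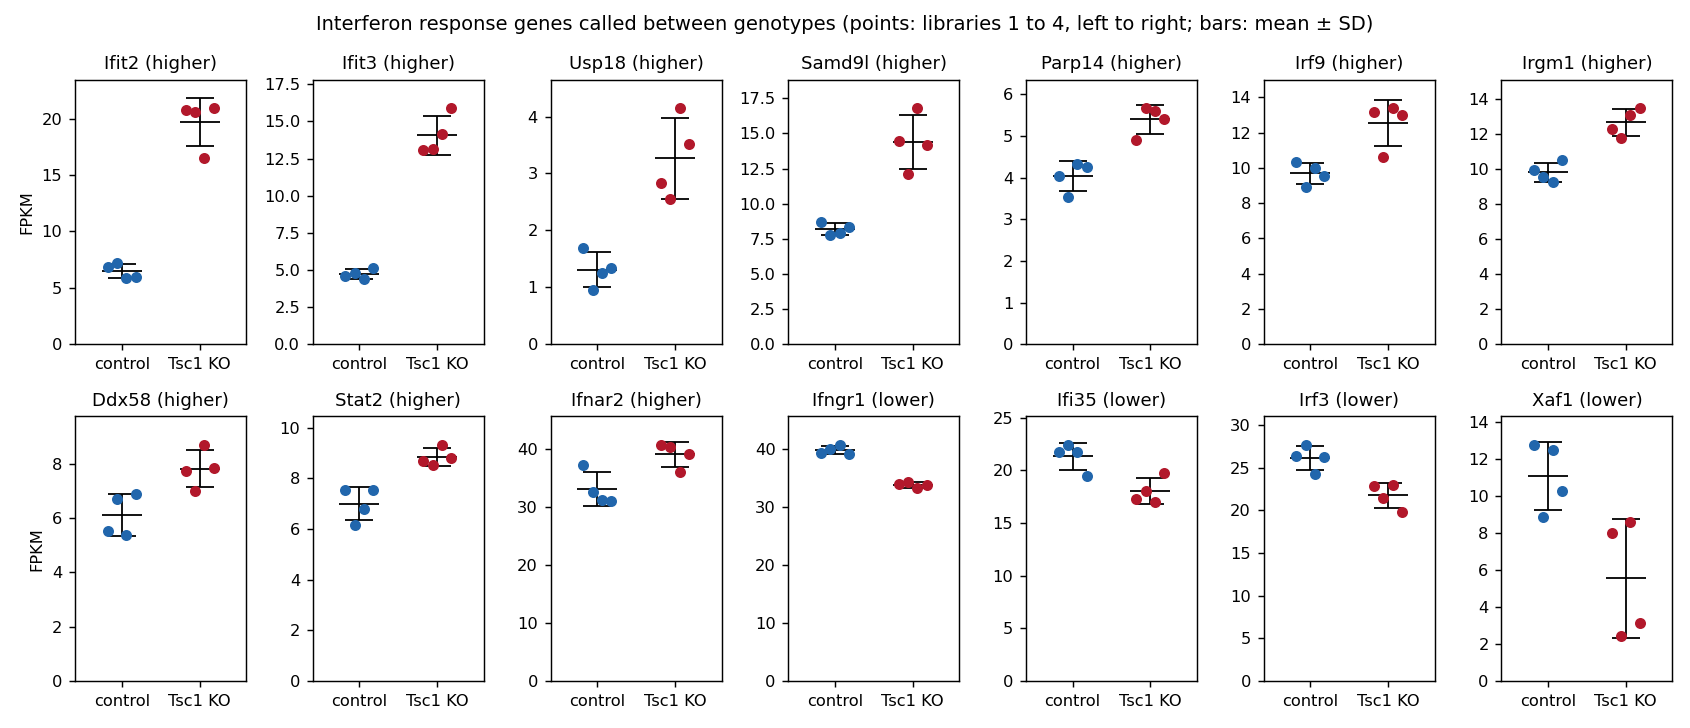
FPKM of the 14 called interferon response genes in each library, on linear axes from 0, with controls in blue, Tsc1 knockouts in red, and black bars for mean ± SD (n = 4). The groups are separate in 12 of the 14 panels, all but Ifi35 and Ifnar2, the steps of Ifit2 and Ifit3 are wide beside the spread, and the knockouts of Xaf1 range from 2.42 to 8.58 FPKM.

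ISG15 and its protease parted. Usp18, which removes the ubiquitin-like protein ISG15 from its targets and also restrains signalling at IFNAR2, had 1.69, 0.954, 1.25 and 1.34 FPKM in controls and 2.84, 2.55, 4.15 and 3.52 in knockouts. It rose from 1.31 ± 0.304 to 3.27 ± 0.716 FPKM (log2 change 0.88, SE 0.14, adjusted p = 0.00201). Isg15 itself, usually among the most strongly induced interferon targets, had 4.87, 4.16, 4.10 and 3.68 FPKM in controls and 3.44, 3.29, 5.16 and 4.68 in knockouts. The groups overlapped, with 2 knockouts below all controls and 1 above all controls. Isg15 did not pass (-0.03, SE 0.13, adjusted p = 0.890). The ratio of Usp18 to Isg15 within a library was 0.229 to 0.363 in controls and 0.752 to 0.825 in knockouts, and both genes were lower in knockouts 1 and 2 than in 3 and 4. Usp18 was called in all 17 alternative analyses that tested it (0.78 to 1.26), and in the other one it was under the minimum of 5 FPKM.

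Oligoadenylate synthetases, which make the 2-5A messenger that activates RNase L, were low and none was called. Oasl2, a relative of these enzymes, had 5.16, 5.15, 5.74 and 4.68 FPKM in controls and 4.57, 3.98, 4.73 and 4.53 in knockouts (log2 change -0.18, SE 0.08, adjusted p = 0.101). Oas2 had 1.90, 1.13, 1.86 and 0.766 FPKM in controls and 0.794, 0.723, 1.27 and 0.963 in knockouts (-0.30, SE 0.18, adjusted p = 0.240). Both overlapped between groups. Oas1a (0.896 ± 0.315 and 0.535 ± 0.151 FPKM), Oas1g and Oas3 were under the filter, and reads of Oas1a and Oas1g, close copies in one cluster, may be split between them. The classical antiviral effectors Mx1, Mx2 and Rsad2 (viperin) were also under the filter, with means of 0.239, 1.01 and 0.903 FPKM in controls and 0.247, 0.885 and 0.899 in knockouts. Without a filter on low values none of these 6 was called.

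None of the 4 genes for membrane proteins that block virus entry or release was called. Ifitm2 and Ifitm3 were the most abundant of all members. Ifitm2 had 416, 393, 407 and 380 FPKM in controls and 423, 420, 442 and 405 in knockouts (log2 change 0.08, SE 0.05, adjusted p = 0.254). Ifitm3 had 243, 240, 244 and 244 FPKM in controls and 233, 187, 234 and 192 in knockouts. The controls were nearly equal, all 4 knockouts lay below them, and knockouts 2 and 4 were the lower pair. Ifitm3 did not pass with all libraries (-0.20, SE 0.08, adjusted p = 0.0923). It was called once odd or even number was a covariate (-0.20) and among the even-numbered libraries alone (-0.35). Ifitm2 was called only with quantile normalisation (0.27). Bst2 (tetherin, which holds budding virus at the cell surface) averaged 34.4 ± 7.58 and 40.4 ± 4.46 FPKM (0.24, SE 0.15, adjusted p = 0.233), and Ifitm1 2.18 ± 0.390 and 2.09 ± 1.04 FPKM. The Bst2 difference was 0.37 and called without control 3, and 0.14 without control 2.

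**Figure D3:**
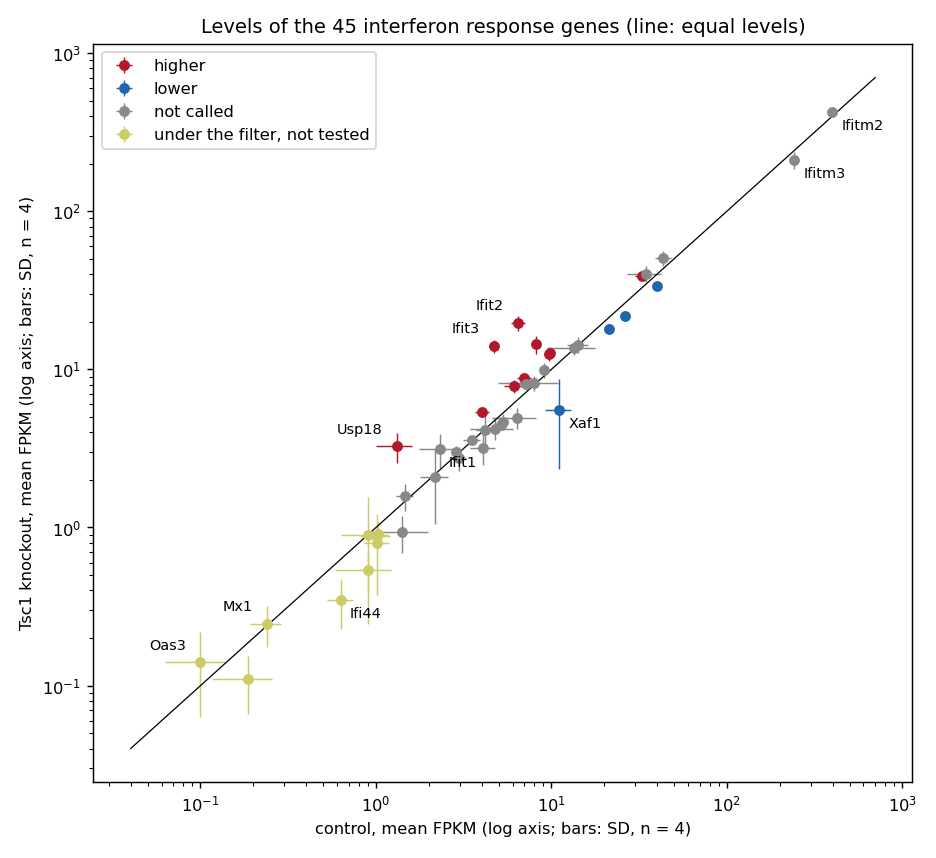
Mean FPKM of the 45 genes in controls (horizontal) and Tsc1 knockouts (vertical), on log axes, with SD bars (n = 4) and a line of equal levels. Levels span from about 0.1 FPKM (Oas3) to Ifitm2 at 399 and 423 FPKM, and Ifit2, Ifit3 and Usp18 lie well above the line.

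Of the 6 interferon-induced GTPases, which attack membranes around intracellular microbes, 1 rose. Irgm1, a regulator of the other p47 GTPases and of autophagy, had 9.97, 9.52, 9.26 and 10.5 FPKM in controls and 12.3, 11.8, 13.1 and 13.5 in knockouts, without overlap. It rose from 9.82 ± 0.552 to 12.7 ± 0.765 FPKM (log2 change 0.34, SE 0.06, adjusted p = 0.00435), a call lost among the even-numbered libraries alone (0.31). Gbp2, a guanylate-binding protein, had 15.7, 12.3, 16.1 and 12.9 FPKM in controls and 16.1, 12.3, 14.2 and 14.9 in knockouts (0.01, adjusted p = 0.930). Iigp1, the p47 GTPase Irga6, had 11.7, 4.55, 7.49 and 7.95 FPKM in controls and 7.86, 7.29, 8.06 and 9.42 in knockouts (0.09, adjusted p = 0.775). The spread of Iigp1 among controls covered all knockouts. Gbp3, Gbp7 and Igtp had log2 differences of -0.29, -0.12 and -0.29 and did not pass. Igtp was called lower without control 2 (-0.46) and among the odd-numbered libraries (-0.56).

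The GTPases also varied together within groups. Control 2 had the lowest value of the 4 controls for 5 of the 6 and knockout 2 the lowest of the knockouts for all 6, while control 1 was highest for 4 and knockout 4 for 5. Summed over the 6 genes, controls 1 to 4 had 56.6, 37.1, 48.4 and 46.7 FPKM and knockouts 48.2, 41.2, 48.1 and 52.4. The coefficient of variation among controls had a median of 21.7% for the GTPases, against 10.2% over the 36 tested genes. Across all 36, control 2 was the lowest control for 18 genes and knockout 2 the lowest knockout for 23, with knockout 3 the highest for 17.

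Parp14, an ADP-ribosyltransferase, had 4.05, 3.54, 4.32 and 4.26 FPKM in controls and 4.91, 5.67, 5.604 and 5.41 in knockouts. It rose without overlap from 4.04 ± 0.352 to 5.40 ± 0.342 FPKM (log2 change 0.35, SE 0.07, adjusted p = 0.00836), a call lost among the odd-numbered libraries alone (0.27). Parp9 and Dtx3l, whose proteins form a ubiquitin ligase complex and whose genes lie next to Parp14 on chromosome 16, had differences of opposite sign that did not pass. Parp9 had 6.34, 7.88, 6.50 and 7.997 FPKM in controls and 7.47, 8.69, 7.76 and 8.46 in knockouts (0.16, SE 0.09, adjusted p = 0.207). In both groups the even-numbered libraries were higher, and Parp9 was called once odd or even number was a covariate (0.16). Dtx3l had 5.37, 4.96, 5.24 and 5.63 FPKM in controls and 4.06, 4.38, 4.89 and 5.28 in knockouts (-0.16, SE 0.08, adjusted p = 0.164). The annotated ends of Parp9 (35938470 to 35972621) and Dtx3l (35926515 to 35939027) overlap in mm10, and reads there cannot be told apart without strand.

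Among the other induced genes, Samd9l, an antiviral factor that halts protein synthesis, had 8.70, 7.79, 7.89 and 8.31 FPKM in controls and 14.5, 12.1, 16.8 and 14.2 in knockouts. It rose from 8.17 ± 0.419 to 14.4 ± 1.91 FPKM (log2 change 0.74, SE 0.09, adjusted p = 5.20e-04) and was called in all 18 alternative analyses (0.64 to 0.84). Xaf1, an apoptosis-promoting partner of the inhibitor XIAP, had 12.8, 8.88, 12.5 and 10.3 FPKM in controls and 7.99, 2.42, 8.58 and 3.16 in knockouts. All knockouts were below all controls, but knockouts 2 and 4 were far lower than 1 and 3. Xaf1 fell from 11.1 ± 1.85 to 5.54 ± 3.20 FPKM (-1.02, SE 0.33, adjusted p = 0.0434). The call was lost without any 1 control, without knockout 2 or 4 (-1.25 to -0.76 across the 8 such fits), without a filter (-1.02) and with library weights (-0.91). Over the 18 alternative analyses the log2 difference of Xaf1 ran from -1.48 to -0.55.

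Ifi35, a partner of the STAT-binding protein NMI, had 21.7, 22.4, 21.7 and 19.4 FPKM in controls and 17.3, 18.1, 17.0 and 19.8 in knockouts, where knockout 4 overlapped control 4. It fell from 21.3 ± 1.30 to 18.03 ± 1.25 FPKM (log2 change -0.23, SE 0.07, adjusted p = 0.0310). The call was lost without control 1, 2 or 3 or knockout 1, 2 or 3 (-0.27 to -0.20 across the 8 such fits) and among the even-numbered libraries (-0.14). Rtp4, a chaperone of receptors, had 3.002, 2.76, 2.75 and 3.37 FPKM in controls and 2.38, 2.55, 2.63 and 3.45 in knockouts (-0.09, adjusted p = 0.550). Ifi44, an induced gene under the filter, had 0.715, 0.476, 0.638 and 0.691 FPKM in controls and 0.193, 0.331, 0.392 and 0.486 in knockouts, with 3 of 4 knockouts below all controls. Without a filter it was called lower (adjusted p = 0.0374).

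**Figure D4:**
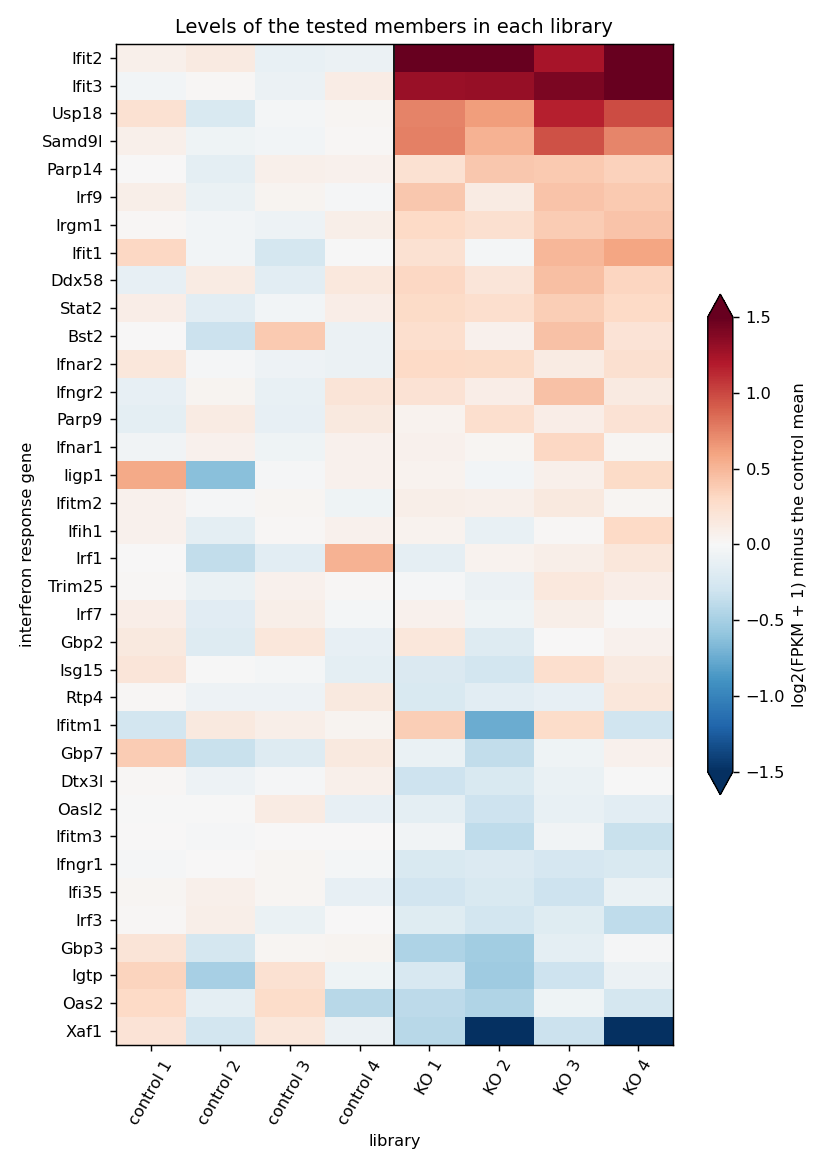
Log2(FPKM + 1) minus the control mean of the gene, for the 36 tested genes (rows, ordered by genotype difference) in the 8 libraries (columns); red is above and blue below the control mean, and colours saturate at 1.5. The top 4 rows (Ifit2, Ifit3, Usp18, Samd9l) are red in all 4 knockouts, and most rows below them differ as much between libraries of a group as between groups.

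A wider list of 102 interferon pathway genes outside the 45 was similar. Of 71 that passed the filter, 13 rose, 7 fell and 51 did not pass, with a median log2 difference of 0.02, beside the backgrounds of 17.1% and 15.0%. Plscr1, an interferon-induced phospholipid scramblase, rose from 1.57 ± 0.216 to 3.93 ± 0.699 FPKM (0.93), Lgals3bp, a secreted galectin-binding glycoprotein, from 15.8 ± 2.96 to 30.8 ± 7.10 FPKM (0.91), and Ifi30, a thiol reductase of lysosomes, from 37.7 ± 8.01 to 70.3 ± 4.27 FPKM (0.90). Samhd1, which degrades deoxynucleotides, rose by 0.71, Tlr3, an endosomal sensor of double-stranded RNA, by 0.45, Adar, an RNA-editing enzyme, by 0.40 and Tmem173 (STING, the adaptor of cytosolic DNA sensing) by 0.39. Jak1, the kinase shared by these receptors, rose by 0.33. Outside the naming rule, and named after their values were seen, the RNA-activated kinase gene Eif2ak2 (0.32), Tbk1 (0.20), the kinase of IRF3, and the cap methyltransferase gene Cmtr1 (0.19) also rose.

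The 7 genes that fell were Gbp4 (from 4.55 ± 1.34 to 2.003 ± 0.425 FPKM, log2 difference -0.86), the DNA exonuclease gene Trex1 (-0.38), the RNA exonuclease gene Isg20 (-0.38), Gbp9 (-0.36), the nuclear body gene Sp100 (-0.35), the RNase H2 subunit gene Rnaseh2c (-0.29) and Irf5 (-0.26). All 7 tested members of the other guanylate-binding and p47 GTPases had a difference below 0 (median -0.36), 2 of them called. None of 10 negative regulators in this wider list (Socs1 and Socs3 among them, Usp18 not) was called by limma. Of these 10, 1 had an unadjusted p under 0.05. Several calls in the wider list were near the threshold. The Isg20 call was lost without any 1 library but knockout 3 (-0.47 to -0.26 across the 8 such fits), that of Gbp9 without any but control 3 and knockout 4 (-0.43 to -0.29), that of Rnaseh2c without any but control 1 and knockout 2 (-0.38 to -0.25) and that of Irf5 without control 2 or 3 or knockout 2 or 4 (-0.29 to -0.22). Among genes that rose, the Tmem173 call was lost without control 2, 3 or 4 or knockout 1 or 3 (0.31 to 0.48), that of Cmtr1 without any but control 3 (0.17 to 0.22), that of Eif2ak2 without any but control 4 and knockout 1 (0.26 to 0.38) and that of Tbk1 without control 4 or knockout 2, 3 or 4 (0.18 to 0.22). Within odd and within even numbers, each 2 against 2, the calls of 7 of these genes were lost in both fits. The odd and even values were 0.16 and 0.22 for Cmtr1, 0.32 and 0.31 for Eif2ak2, 0.17 and 0.23 for Tbk1, -0.39 and -0.32 for Gbp9 and -0.19 and -0.33 for Irf5. They were -0.25 and -0.50 for Isg20 and -0.27 and -0.31 for Rnaseh2c. Tmem173 (0.24), Gbp4 (-0.71), Sp100 (-0.33) and Tlr3 (0.35) lost their calls among the even-numbered libraries only.

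**Figure D5:**
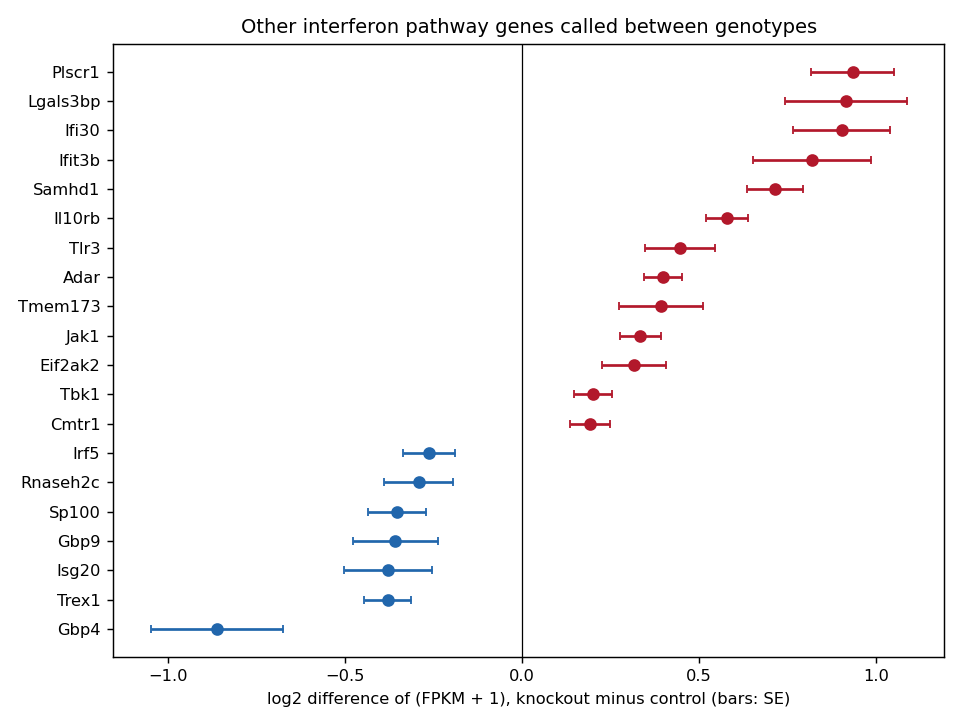
Log2 difference of FPKM + 1, knockout minus control, with its SE, for the 20 called genes of the wider interferon pathway list; red marks the 13 higher and blue the 7 lower genes. Plscr1 (0.93) is at the top and Gbp4 (-0.86) at the bottom.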

How the data were processed

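RNA from 8 thoracic aorta samples was poly(A)-selected, per the labels' protocols. The authors deposited 1 table of FPKM values, 1 column per library. Per the submitters' processing notes, the tools were TopHat2, Cufflinks and Cuffdiff and the build was mm10. Tool versions, the annotation used, whether counting was stranded and how columns were scaled are not given in these sources. The labels do not say that each library came from a separate mouse, so the p-values rest on the variation among these 8 samples, part of which may be technical.

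Genes averaging 1 FPKM or more were tested as log2(FPKM + 1) with limma 3.58.1 in R 4.3.3 (lmFit, eBayes with trend, genotype only, two-sided, Benjamini-Hochberg over 12107 genes), checked on simulated data. Absolute depth is unknown. Alternatives changed the pseudocount, filter, scaling, library weights, blocking and the libraries used. The genes, lists and alternatives were chosen with earlier results of these data known. Values per library were given for called members and for the 2 most abundant uncalled members of each role group; of other pathway genes, up to 10 called in each direction were named, and 1 gene is not reported here. Lists used current symbols, and 4 genes (Adgre1, Ifit1bl1, Ifit1bl2, Ifit3b) were matched through RefSeq synonyms. Coordinates and promoters are from RefSeq, GRCm38.p6.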

Additional observations from a re-analysis of the deposited data

Results flagged for a closer look

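Within groups of 4, a library was far from the other 3 in 5 of 90 cases (45 genes in 2 groups), where chance alone flags about 1 in 20. Knockout 3 was the lowest knockout for Ifit2 (16.5 FPKM, the others 20.6 to 20.9) and the highest for Rsad2 (1.88 FPKM, the others 0.520 to 0.603) and for Ifnar1 (11.6 FPKM, the others 9.27 to 9.57). Knockout 2 was the lowest for Irf9 (10.6 FPKM, the others 13.02 to 13.4). Control 4 was the lowest control for Mx1 (0.169 FPKM, the others 0.254 to 0.271).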

How the results depend on the processing

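Over 18 alternative analyses no called member changed direction, and 4 of the 14 called members (Ifit2, Ifit3, Usp18 and Samd9l) were called in every one that tested them; a minimum of 5 FPKM left Usp18 and Parp14 untested; the remaining 10 lost their call in at least 1, and 6 of the 22 uncalled members were called in at least 1. The count of 10 members higher became 6 among the even-numbered libraries alone and ran from 8 to 9 with each library left out in turn. The count of 4 members lower ran from 2 to 3 with each library left out; it was 2 without control 1, control 2, control 3 or knockout 2. Of the other pathway genes, the 7 lower became 3 with a minimum mean of 5 FPKM (40 genes tested), 14 once odd or even number was a covariate, 3 among the even-numbered libraries and 4 to 5 with each library left out; it was 4 without control 3, control 4, knockout 1, knockout 2 or knockout 4. The cause was not tested. Median-of-ratios scaling and a pseudocount of 0.1 called the same 14 members. Replicate numbers are shared between groups but did not pair the libraries by the correlation of deviations (0.0656 to 0.173 for equal numbers), and not every library correlated best with its own number. With the replicate block 13 other pathway genes were lower, and 12 of the 14 members stayed called; Ddx58 (0.31) and Ifi35 (-0.23) were not, and Bst2 was (0.24). Genes under 1 FPKM rest on few fragments.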
